A study of Mus musculus with 18 samples.

Results

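Dbp, Tef and Hlf encode the PAR bZIP (proline- and acidic-amino-acid-rich basic leucine zipper) transcription factors, and Nfil3 (also called E4BP4) encodes a related basic leucine zipper protein. These 4 genes were taken from the 32285 genes of the deposited feature table by their symbols, and all 4 were present. Their transcripts were counted by single-cell RNA sequencing in the dorsal dermis of 18 wild-type male C57BL/6J mice kept in 12 h light and 12 h dark, 3 mice at each of 6 zeitgeber times (ZT2, 6, 10, 14, 18 and 22, in hours after lights on). Each mouse gave 1 library of live cells, sorted as negative for the viability dye SYTOX blue and captured with the Chromium 3′ chemistry. The mice of 1 zeitgeber time were collected on 3 successive days, numbered here as replicates 1 to 3, and the skin was in telogen, the resting phase of the hair cycle. No group carried a transgene or a treatment, so time of day was the only difference between groups.

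PAR bZIP proteins activate transcription from D-box sites, and NFIL3 binds the same sites and represses. Transcription of Dbp is driven by CLOCK and BMAL1 through E-boxes, and transcription of Nfil3 is restrained by the REV-ERB repressors and raised by ROR activators through their shared response element. In liver and kidney the PAR bZIP factors control genes of xenobiotic detoxification, and in the immune system NFIL3 is known for its role in the development of natural killer cells and innate lymphoid cells. The comparisons below give the daily course of the 4 transcripts in each class of dermal cells, and whether their course and level differed between classes.

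In the GENCODE annotation of GRCm38, Dbp (ENSMUSG00000059824) lies at chr7:45705088-45710203 on the plus strand, Tef (ENSMUSG00000022389) at chr15:81802421-81826863 on the plus strand, Hlf (ENSMUSG00000003949) at chr11:90336536-90390895 on the minus strand, and Nfil3 (ENSMUSG00000056749) at chr13:52967209-52981073 on the minus strand. All 4 are protein-coding. Dbp shares 737 bases with Sphk2 and Tef shares 193 bases with the antisense gene Gm17597, each on the opposite strand.

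Promoters of all 4 genes were found among the RefSeq start sites of GRCm38.p6, with 1 start each for Dbp, Hlf and Nfil3 and 2 for Tef, read from 250 bases before to 50 bases after the start. They were searched on both strands for the E-box CACGTG, the D-box TTATGTAA, a looser D-box TTANNTAA that includes it, and the ROR half-site AGGTCA. The windows that held a match are printed because they carry letters of the elements named above, in the direction of transcription, with the matches in capitals. The window of the upstream Tef start spans chr15:81802423-81802722 and that of the downstream Tef start chr15:81811164-81811463, both on the plus strand. The window of the Nfil3 start spans chr13:52980990-52981289 on the minus strand.
Tef upstream start: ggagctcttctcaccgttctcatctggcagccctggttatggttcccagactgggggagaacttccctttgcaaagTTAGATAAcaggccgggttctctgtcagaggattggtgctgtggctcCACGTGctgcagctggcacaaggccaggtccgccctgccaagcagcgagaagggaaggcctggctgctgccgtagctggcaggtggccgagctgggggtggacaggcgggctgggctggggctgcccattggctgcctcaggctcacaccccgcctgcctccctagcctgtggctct
Tef downstream start: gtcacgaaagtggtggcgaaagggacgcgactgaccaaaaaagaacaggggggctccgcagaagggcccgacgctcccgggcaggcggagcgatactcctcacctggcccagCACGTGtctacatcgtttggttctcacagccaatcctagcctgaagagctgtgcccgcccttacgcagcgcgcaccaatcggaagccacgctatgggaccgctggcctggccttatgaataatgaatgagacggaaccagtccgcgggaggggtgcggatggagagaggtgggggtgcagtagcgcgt
Nfil3 start: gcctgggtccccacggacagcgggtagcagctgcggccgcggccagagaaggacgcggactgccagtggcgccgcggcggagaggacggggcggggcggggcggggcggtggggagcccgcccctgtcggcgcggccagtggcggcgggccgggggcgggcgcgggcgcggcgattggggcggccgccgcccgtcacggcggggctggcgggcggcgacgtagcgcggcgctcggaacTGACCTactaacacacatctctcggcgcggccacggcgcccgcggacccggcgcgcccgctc
Both Tef windows held an E-box, with its first base at −127 and −138 from the start, and the upstream window also held TTAGATAA, a match to the looser D-box, at −174. The Nfil3 window held the ROR half-site on the opposite strand, read as TGACCT, at −12. The windows of Dbp and Hlf held none of the 4 motifs, and TTATGTAA itself was in none of the 5 windows. Among 32851 windows of the same length over all genes, 7.15% held the E-box, 0.938% TTATGTAA, 6% the looser D-box and 16.3% the ROR half-site. A match describes letters and does not show binding.

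The deposited matrices held 23990 barcodes, 318 to 2322 per library, and 4850221 to 40827442 unique molecular identifiers (UMIs, each standing for 1 captured transcript) per library. After the filter on detected genes and mitochondrial UMIs, 16877 cells remained. Classes named from marker genes were fibroblasts (11607 cells), macrophages (1569), other immune cells (1463) and muscle cells (736), while 1458 cells stayed unnamed, 5.37% to 11.7% of the kept cells of a zeitgeber time. Fibroblast markers in macrophages were at 0.404% to 1.53% of their fibroblast level, in other immune cells at 0.292% to 0.645% and in muscle cells at 1.70% to 3.54%. The general immune markers stood at 0.00368 to 0.0664 UMIs per 10000 in fibroblasts. Macrophage markers stood at 0.109 to 6.41 in other immune cells and at 0.795 to 60.7 in macrophages. How far macrophage transcripts entered the levels of other immune cells was not tested. Levels are UMIs of a gene per 10000 UMIs of the class in a library. Fibroblasts had 2507507 to 33336180 UMIs per library, macrophages at least 266962, other immune cells at least 185298 and muscle cells at least 80490 in the 17 libraries with 10 or more muscle cells; ZT2 replicate 3, with 1 muscle cell, was left out of that class. ZT6 replicate 2 and ZT10 replicate 3 shared 89 barcodes, against 4 in the next pair of libraries, and each of the 89 failed the filter in ZT6 replicate 2 (median 553 UMIs) while passing it in ZT10 replicate 3 (median 30446 UMIs). Results that change when both libraries are left out are given with that value.

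Within fibroblasts all 4 transcripts had a 24 h rhythm (edgeR quasi-likelihood test of a 24 h cosine, with Benjamini-Hochberg adjustment over all genes tested). The PAR bZIP transcripts rose through the light phase to their highest mean at ZT10, and Nfil3 had its highest mean at ZT22, near the end of the dark phase. The 4 called members stand against 13.0% of 12815 genes called in this class.

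Dbp, the PAR bZIP gene with the largest swing, was at 2.48, 2.65 and 2.41 UMIs per 10000 in the 3 fibroblast libraries of ZT10, at 1.58, 1.39 and 2.36 at ZT6, and at 1.09, 1.68 and 0.858 at ZT14. It was at 0.271, 0.102 and 0.179 at ZT18, at 0.0568, 0.0709 and 0.0565 at ZT22, and at 0.0521, 0.221 and 0.0918 at ZT2. The 9 libraries of ZT6, ZT10 and ZT14 lay above the 9 libraries of the other times with no overlap. The mean was 2.51 ± 0.127 at ZT10 and 0.0614 ± 0.00825 at ZT22 (SD, n = 3 mice), 40.9-fold apart, with 42 or more UMIs behind every library's value. The fitted amplitude, from mean to peak, was 2.93 ± 0.19 on the log2 scale (jackknife SE over 18 libraries), and the adjusted p in edgeR was 5.39e-08. By this p Dbp ranked 3 of the 12815 genes, and by amplitude 5 of the 1671 called.

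Tef, which encodes the PAR bZIP factor first described in thyrotroph cells, was at 1.14, 1.52 and 1.29 at ZT10, at 0.887, 0.894 and 1.09 at ZT6, and at 0.781, 1.35 and 1.06 at ZT14 in fibroblasts. Its values were 0.654, 0.422 and 0.590 at ZT18, 0.185, 0.259 and 0.336 at ZT22, and 0.223, 0.257 and 0.182 at ZT2. The libraries of ZT6, ZT10 and ZT14 again lay above all others, and all libraries of ZT18 lay above those of ZT2. Means were 1.32 at ZT10 and 0.221 at ZT2, 5.96-fold apart. The amplitude was 1.36 ± 0.13 log2 (adjusted p = 1.24e-06, edgeR), the smallest of the 4 in this class.

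Hlf, which encodes hepatic leukemia factor, first found in a leukemia fusion gene, had the fewest UMIs of the PAR bZIP genes at each time in fibroblasts, where the counts are 3′ tags and do not scale with transcript length. It was at 0.522, 0.651 and 0.583 at ZT10, at 0.263, 0.260 and 0.305 at ZT6 and at 0.226, 0.455 and 0.363 at ZT14. It was at 0.132, 0.131 and 0.125 at ZT18, at 0.0401, 0.0469 and 0.0753 at ZT22, and at 0.0223, 0.0375 and 0.0189 at ZT2. All libraries of ZT10 exceeded those of every other time, and the 3 libraries of ZT2 were the lowest. The fold between the ZT10 and ZT2 means was 22.3, the amplitude 2.04 ± 0.20 log2 and the adjusted p in edgeR 5.77e-07.

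Nfil3, the repressor of the same sites, ran the other way. In fibroblasts it was at 0.509, 0.465 and 0.305 at ZT22, at 0.221, 0.3499 and 0.334 at ZT2, and at 0.136, 0.408 and 0.217 at ZT18. It was at 0.0538, 0.0836 and 0.0537 at ZT6, at 0.0343, 0.0487 and 0.0468 at ZT10, and at 0.0562, 0.0456 and 0.0613 at ZT14. The libraries of ZT18, ZT22 and ZT2 all lay above those of ZT6, ZT10 and ZT14, and ZT18 had the widest spread of the 6 times. The means of ZT22 and ZT10 were 9.85-fold apart (0.426 and 0.0433), the amplitude was 1.88 ± 0.15 log2 and the adjusted p in edgeR 1.16e-07.

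**Figure D1:**
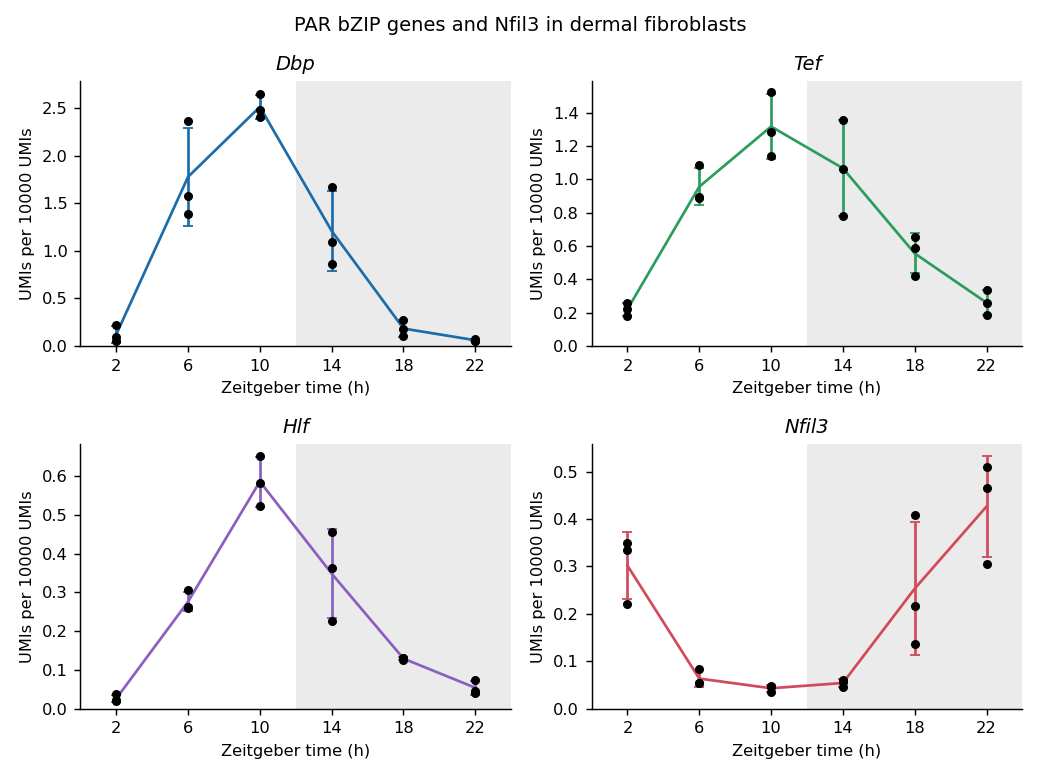
UMIs per 10000 UMIs in fibroblasts against zeitgeber time in hours, 1 panel per gene, with 1 point per mouse and a line through the mean of 3 mice with bars of 1 SD; the dark phase is shaded. Dbp, Tef and Hlf are highest at ZT10 (means 2.51, 1.32 and 0.585), and Nfil3 is lowest there (0.0433) and highest at ZT22 (0.426).

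The fitted peaks in fibroblasts were at ZT 9.85 ± 0.31 h for Dbp, 11.1 ± 0.41 h for Tef, 11.1 ± 0.35 h for Hlf and 22.3 ± 0.41 h for Nfil3 (jackknife SE over 18 libraries). Peak times of 2 genes were compared on standardized log2 CPM (counts scaled to the library total) by swapping them within libraries (permutation test, 100000 draws, two-sided, adjusted over 6 pairs). In this permutation test Tef peaked 1.10 h after Dbp (p = 0.00235, adjusted p = 0.00705) and Hlf 1.33 h after Dbp (p = 0.00086, adjusted p = 0.00516). The same test on counts per 10000 over their mean gave 1.30 h for Tef (adjusted p = 0.0489, near the threshold) and 1.19 h for Hlf (adjusted p = 0.0287). On the 3 collection days taken alone, as numbered in the labels, Tef followed Dbp by 0.431, 1.29 and 1.61 h. Hlf followed Dbp by 0.556, 1.67 and 1.77 h, so the order held in each set and the gap was smallest in the first. Hlf and Tef were 0.228 h apart (permutation p = 0.242, adjusted p = 0.242), a gap that turned to −0.114 h on counts per 10000. With peaks taken on a 24 h circle, Nfil3 minus Tef was 11.2 h, Nfil3 minus Hlf 11.02 h and Nfil3 minus Dbp −11.65 h. For these opposed pairs the test cannot reach a small p, since swapping genes of opposite phase again gives opposed genes (adjusted p = 0.151 for each).

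Amplitudes within single collection days were 2.86 to 2.99 log2 for Dbp, 1.29 to 1.48 for Tef, 2.02 to 2.15 for Hlf and 1.61 to 1.94 for Nfil3 in fibroblasts. They are least-squares fits to log2 CPM of 6 libraries each, whereas the amplitudes above are edgeR coefficients. Leaving out each of the 18 libraries in turn kept all 4 calls, with the largest adjusted p in edgeR at 8.25e-06 for Tef. In the sum of all barcodes of a library, where cell classes are mixed, Dbp kept an amplitude of 2.73 log2 and Nfil3 had 0.95, against 1.88 in fibroblasts alone. Of 9300 Nfil3 UMIs over all barcodes, 5329 came from fibroblasts and 2417 from other immune cells.

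The share of single fibroblasts with a UMI moved in the same way. After each cell was thinned to 5000 UMIs, which left 11354 of 11607 fibroblasts, 68.1% held a Dbp UMI at ZT10 and 2.74% at ZT22 (94.9% and 11.3% before thinning). Other immune cells, thinned alike, had 6.71% with Dbp at ZT10, with a median of 8982.5 UMIs per cell before thinning against 21933 in fibroblasts. For Nfil3 the fibroblast share was 1.76% at ZT10 and 18.01% at ZT22, and 6.03% and 45.01% before thinning. Hlf was found in 22.2% of thinned fibroblasts at ZT10 and in 2.40% of thinned macrophages, whose median depth was 12592 UMIs. A cluster of 368 haemoglobin-led cells could not serve as a cell type without these transcripts, because 44.2% of its thinned cells held Dbp at ZT10.

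Macrophages had a rhythm of Dbp and Tef. Of the 3 members that passed the filter on low counts in this class 2 were called, against 0.722% of 9008 genes, and Hlf did not pass. Dbp was at 1.46, 1.76 and 1.74 UMIs per 10000 at ZT10, at 0.511, 1.70 and 1.08 at ZT14 and at 0.621, 0.295 and 0.862 at ZT6. It was at 0.187, 0.149 and 0.247 at ZT18, at 0.180, 0.0408 and 0.0801 at ZT22, and at 0.0954, 0.118 and 0.152 at ZT2. The ZT6 to ZT14 libraries lay above all others, as in fibroblasts. The ZT10 and ZT22 means were 16.5-fold apart. The amplitude was 2.14 ± 0.29 log2 and the peak at ZT 10.8 ± 0.47 h (adjusted p = 3.35e-07, edgeR), from 5 to 294 UMIs per library.

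Tef in macrophages had means of 0.614 at ZT10, 0.568 at ZT14, 0.110 at ZT2 and 0.183 at ZT22, with single libraries from 0.0886 to 0.827. Its amplitude was 1.22 ± 0.21 log2 and its peak at ZT 12.3 ± 0.52 h (adjusted p = 0.000233, edgeR). By the rank test of the JTK_Cycle type, which called 0.167% of the macrophage genes, Dbp was called (adjusted p = 0.00725) and Tef was not (adjusted p = 0.0888). Hlf was nearly absent, with 32 UMIs among 22414766 in macrophages and 0 in 10 of 18 libraries, and 18 of its 32 UMIs fell in the ZT10 libraries.

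Nfil3 in macrophages was at 0.315, 0.449 and 0.353 at ZT22 and at 0.0749, 0.149 and 0.385 at ZT18. In the libraries of the other 4 times it lay between 0.0842 and 0.222. The ZT22 libraries lay above all others except 1 of ZT18, which fell among them. The amplitude of 0.55 ± 0.18 log2 did not pass (adjusted p = 0.231, edgeR; unadjusted p = 0.0110), and without the filter on low counts the adjusted p was 0.0362. The mean at ZT22 was 0.372 and at ZT14 0.132.

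In the other immune cells Nfil3 had the most UMIs of the 4 genes and no member had a called rhythm. Nfil3 was at 0.539 in the lowest, 1.34 in the median and 2.02 UMIs per 10000 in the highest of the 18 libraries, from 29 to 423 UMIs each. Its time means ran from 0.894 at ZT6 to 1.72 at ZT10, with an amplitude of 0.12 ± 0.17 log2 (adjusted p = 1.00, edgeR). Dbp reached a highest library of 0.353 and was at 0 in 3 libraries, Tef a highest of 0.185 with 1 library at 0, and Hlf a highest of 0.426 with 3 at 0. None of the 4 was called by edgeR, where 0% of 7898 genes were called. At an unadjusted p under 0.05 edgeR had 3 of the 4 members (Dbp 0.0467, Tef 0.0480, Hlf 0.0223) and 367 genes, and DESeq2 called 1 gene, no member.

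The class of other immune cells is mixed, and cells of 7 finer classes were named from their markers, while 572 of its 1463 cells got no finer name. Those 572 cells held 1184 of the 2417 UMIs of Nfil3 in the class, at 1.48 UMIs per 10000 (95% Poisson interval 1.39 to 1.56). Among the named classes Nfil3 was highest in monocyte-like cells, at 2.84 UMIs per 10000 over all 169 cells (677 UMIs, interval 2.63 to 3.06), and was 1.98 (1.65 to 2.35) in neutrophil-like cells, of which 92 of 147 came from 1 library. It was 0.854 in T-cell-like, 0.851 in NK- and ILC-like (natural killer and innate lymphoid), 0.745 in mast-cell-like and 0.633 in dendritic-cell-like cells. Macrophages had 0.209, and B-cell-like cells had 0 among 198477 UMIs, which allows up to 0.186. These intervals cover counting error only, and no test between the finer classes was made.

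Hlf and Tef were distributed differently. Hlf was at 0.729 (0.536 to 0.970) over the 88 T-cell-like cells, from 47 UMIs. The 2 libraries with 10 or more such cells were at 0.136 and 0.532, below that interval, so libraries with fewer cells raised the pooled value. At ZT10 the 4 thinned other immune cells with Hlf averaged 7.75 UMIs, and such clumping makes a Poisson interval too narrow. Hlf was at 0 in monocyte-, neutrophil-, mast- and B-cell-like cells, which allows up to 0.0155, 0.0565, 0.125 and 0.186. The named classes held 52 of the 142 UMIs of Hlf among other immune cells, and the 572 cells with no finer name held 90 (0.112 per 10000, 0.0902 to 0.138). Tef was highest in mast-cell-like cells among the finer classes, at 0.576 (0.335 to 0.922) from 17 UMIs in 54 cells. No library held more than 6 of these cells, so there is no value per mouse. Dbp was at 0.617 in macrophages and between 0 and 0.139 in the others. The makeup of the class varied with time, with 44, 4, 33, 71, 9 and 8 monocyte-like cells from ZT2 to ZT22, and 101 of the 147 neutrophil-like cells at ZT14. Cells with no finer name numbered 225, 45, 73, 110, 45 and 74 at the same times, with 173 in 1 library. In all cells of the class the difference from fibroblasts in the level of Nfil3 was 3.35 log2. Without the monocyte- and neutrophil-like cells, and with the cells of no finer name kept, it was 3.03. The difference in the rhythm of Nfil3 between fibroblasts and this class then had an adjusted p of 0.00121 in edgeR.

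**Figure D2:**
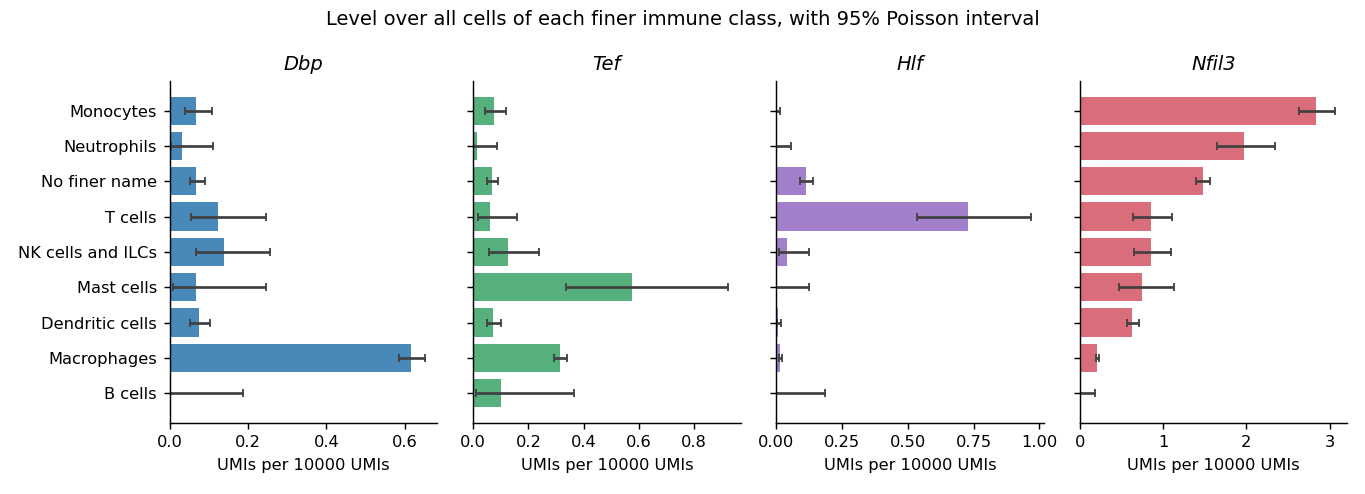
UMIs per 10000 UMIs of each gene (linear axes from 0, 1 panel per gene) summed over all cells of each immune class and of the other immune cells with no finer name, with 95% Poisson intervals as error bars. Among the named classes Nfil3 is highest in monocyte-like (2.84) and neutrophil-like cells (1.98), Hlf in T-cell-like cells (0.729), Tef in mast-cell-like cells (0.576) and Dbp in macrophages (0.617). No library held more than 6 mast-cell-like cells.

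In muscle cells Dbp was the only member with a called rhythm among the 3 that passed the filter, against 0.168% of 3580 genes called. Dbp was at 2.98, 1.01 and 1.08 UMIs per 10000 at ZT6, at 1.46, 1.55 and 1.28 at ZT10, and at 0.836, 0.892 and 1.11 at ZT14. It was at 0.304, 0.362 and 0.193 at ZT18, at 0.163, 0.238 and 0.228 at ZT22, and at 0.358 and 0.436 at ZT2. The lowest library of ZT6 to ZT14 was above the highest of the other times. The highest value, 2.98, came from 24 UMIs. The amplitude was 1.58 ± 0.15 log2 with the peak at ZT 9.04 ± 0.49 h (adjusted p = 1.80e-05, edgeR), the smallest p of the class.

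Tef was nearly level in muscle cells, with time means from 0.662 to 0.860 and an amplitude of 0.10 ± 0.10 log2 (adjusted p = 0.978, edgeR). Nfil3 had 108 UMIs in the class, with means from 0.0428 at ZT6 to 0.344 at ZT22 and an amplitude of 0.87 log2. It was not called (edgeR adjusted p = 0.677 and unadjusted p = 0.0180), while the permutation test of its cosine gave an unadjusted p of 0.00829. Hlf, with 44 UMIs, did not pass the filter. The summed level of the 6 fibroblast markers in muscle cells ranged from 0.476 to 98.1 per 10000 over the libraries, with 573 to 1009 in fibroblasts. Its time means were highest at ZT18 (33.5) and ZT2 (27.2) and lowest at ZT10 (0.773), when Dbp was high. Its part in the muscle results was not tested. When each of the 17 libraries was left out in turn Dbp stayed called, with adjusted p in edgeR up to 0.000151.

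**Figure D3:**
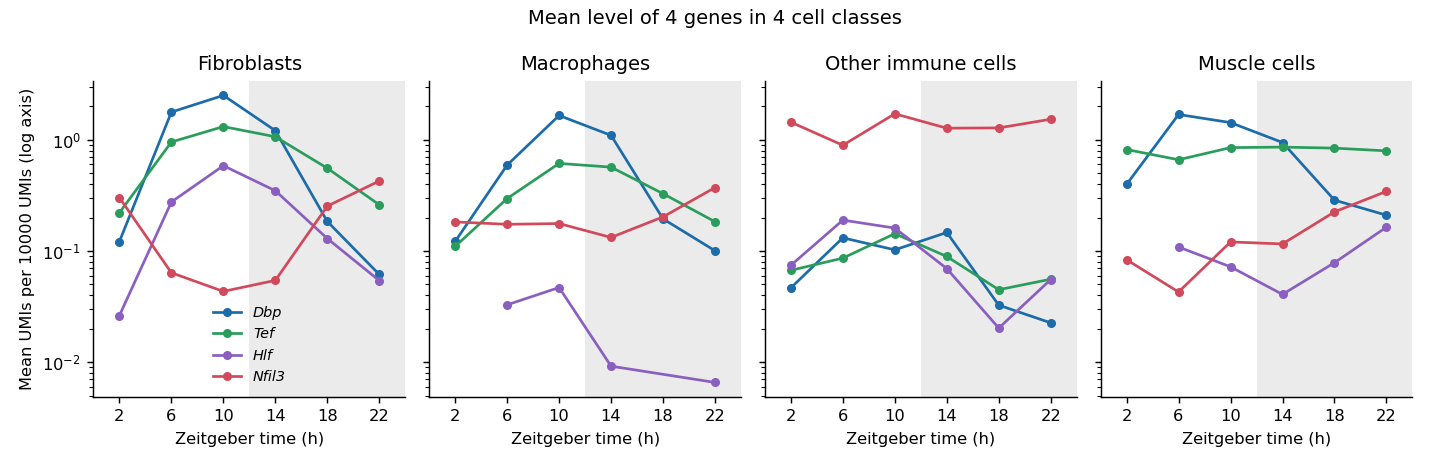
Mean UMIs per 10000 UMIs (log axis) of the 4 genes against zeitgeber time in hours, 1 panel per cell class, each point a mean over mice and the dark phase shaded; means of 0 cannot be drawn and are left out. Dbp rises to 2.51 in fibroblasts, 1.66 in macrophages and 1.69 in muscle cells, while Nfil3 stays between 0.894 and 1.72 in other immune cells.

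The rhythm of each gene was compared between fibroblasts and each other class by the interaction of class with the cosine and sine terms, with the library as a block (edgeR, adjusted over all genes tested). For Nfil3 the rhythm differed in all 3 comparisons, with adjusted p of 0.00311 against macrophages, 0.000117 against other immune cells and 0.0382 against muscle cells. The distance between the fitted cosine and sine terms of Nfil3 was 1.32, 1.77 and 1.49 log2. Against muscle cells the call did not hold on library totals without scaling factors (0.0754), with at least 20 cells per library (0.260), in DESeq2 (0.104) or without ZT6 replicate 2 and ZT10 replicate 3 (0.0883).

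Dbp differed in rhythm between fibroblasts and other immune cells (adjusted p = 0.0320, edgeR), a call that was lost without ZT6 replicate 2 and ZT10 replicate 3 (0.0920). Against macrophages the adjusted p for Dbp was 0.0855, and without ZT14 replicate 1 it was 0.0144. Against muscle cells it was 0.0539, and 0.00857 in DESeq2. Tef differed between fibroblasts and muscle cells (adjusted p = 0.0185, edgeR), not so with at least 20 cells per library (0.435) or without ZT6 replicate 2 and ZT10 replicate 3 (0.0703), and was at 0.237 and 0.190 against macrophages and other immune cells. Hlf was not called in any of the 3 comparisons by edgeR. Its adjusted p was 0.890 against macrophages, 0.0816 against other immune cells and 0.187 against muscle cells, with unadjusted p of 0.595, 0.000152 and 0.00195. In macrophages and muscle cells alone Hlf did not pass the filter, with 32 and 44 UMIs. It entered those comparisons through its fibroblast counts, so they cannot show whether its rhythm differed. The counts of 4 members below still include it. The members called were 1 of 4 against macrophages, where 0.722% of 10671 genes were called, 2 of 4 against other immune cells, where 0.111% of 10850 were, and 2 of 4 against muscle cells, where 0.169% of 9449 were.

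**Figure D4:**
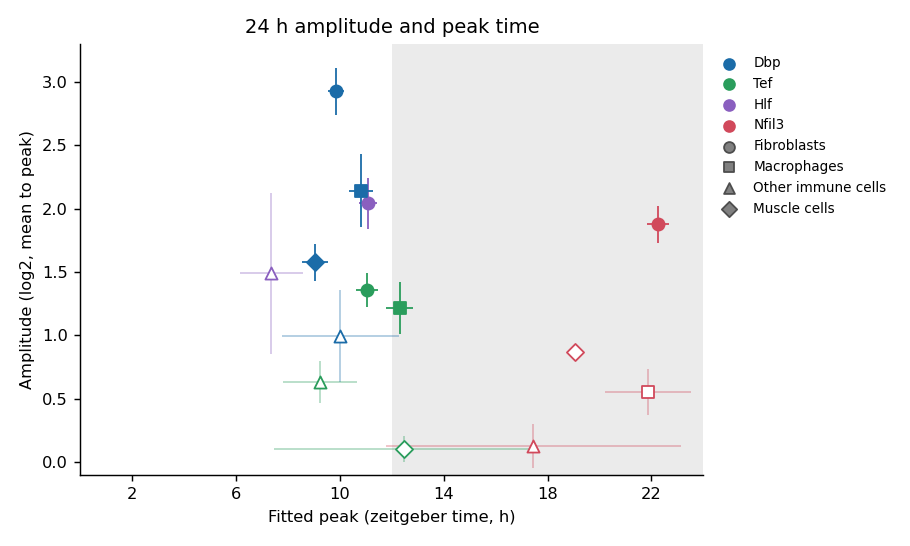
Fitted 24 h amplitude (log2, mean to peak) against fitted peak in zeitgeber hours, with jackknife SE over libraries as bars where it could be computed; colours are genes, shapes are cell classes, and open symbols did not pass the adjusted threshold in their class. Dbp, Tef and Hlf of fibroblasts sit between ZT 9.85 and 11.1 h and Nfil3 of fibroblasts at 22.3 h, and the open symbols of Nfil3 in the other classes lie at lower amplitudes, 0.12 to 0.87.

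Levels were compared in the same mice, as a log2 ratio of class to fibroblasts fitted within libraries. For a rhythmic gene this ratio can differ from the ratio of its daily means. Macrophages held less Tef than fibroblasts (−1.04 log2, adjusted p = 1.04e-09, edgeR) and less Dbp (−0.43, 0.0340, and 0.0508 at a finer clustering), while the difference for Nfil3 was 0.34 with an adjusted p of 0.201. For Hlf it was −3.93 (2.26e-13), with pooled levels of 0.0143 in macrophages and 0.226 in fibroblasts. Hlf did not pass the filter in macrophages alone and entered this comparison through its fibroblast counts. A call of a lower level was thus close to fixed in advance, and the 3 of 4 calls given below include it. Other immune cells as a whole class held less Dbp (−3.23, 6.32e-10), Tef (−2.91, 8.05e-14) and Hlf (−1.16, 0.00834) than fibroblasts. For Hlf the T-cell-like cells went the other way, at 0.729 pooled from 47 UMIs against 0.226 in fibroblasts. The other finer classes and the cells with no finer name were below 0.226. By the fitted ratio the class of other immune cells held 10.2-fold more Nfil3 (3.35 log2, 1.77e-10). Pooled over all cells, their Nfil3 level was 662% of that in fibroblasts. The gap varied over the day, with means of 1.72 against 0.0433 at ZT10 and 1.53 against 0.426 at ZT22. These 3 of 4 and 4 of 4 calls stand against 81.7% and 80.7% of all genes called in the same comparisons, so such counts are near the background. The median of all genes lay at −0.05 log2 for macrophages and −0.14 for other immune cells.

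Against muscle cells 1 of 4 members was called, where 91.0% of genes were. This was Hlf, which passed the filter of this comparison through its fibroblast counts. The direction of these differences depends on the scaling and is not reported as a result. With all 17 libraries the median gene was 1.62 log2 lower in muscle cells, and Dbp was at 0.04, Tef at 0.27, Nfil3 at 0.30 and Hlf at −1.86. With at least 20 cells per library the median gene was 0.38 lower, and the same genes had adjusted p of 0.00102, 1.01e-05, 0.000254 and 0.0594.

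The balance of the 2 kinds of transcript was described by the UMIs of Dbp, Tef and Hlf together over those of Nfil3. In fibroblasts the pooled ratio was 1.07 at ZT2, 54.5 at ZT6, 102 at ZT10, 44.98 at ZT14, 3.298 at ZT18 and 0.758 at ZT22, and single libraries ran from 0.555 to 121. Fibroblasts thus held near-equal counts at ZT2 and ZT22 and a large excess of PAR bZIP UMIs from ZT6 to ZT14. In macrophages it was 1.32, 5.62, 13.6, 12.98, 2.22 and 0.821 at the same times. In other immune cells the pooled ratio was between 0.0912 and 0.436, and 1 of 18 libraries was above 1, at 1.02. In muscle cells it was between 4 and 34.8, with no library below 2.43 among those with a Nfil3 UMI. These ratios rest on few Nfil3 UMIs, 3 at ZT2, 5 at ZT6 (where the ratio was 34.8) and at most 34, at ZT18. In 2 muscle libraries Nfil3 had 0 UMIs.

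**Figure D5:**
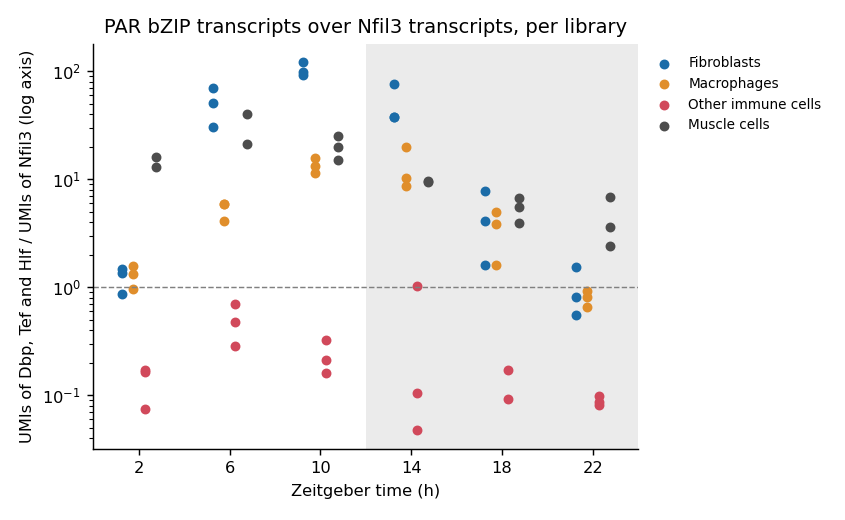
UMIs of Dbp, Tef and Hlf summed over UMIs of Nfil3 (log axis) against zeitgeber time in hours, 1 point per library and colour per cell class; the dashed line marks a ratio of 1, and libraries with 0 UMIs on either side are not drawn. Fibroblast libraries span 0.555 to 121 over the day, and the other immune cells stay at or below 1.02.

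Other genes of the pathway were counted from lists of genes with E-boxes, with D-boxes and with ROR/REV-ERB elements, of targets of the PAR bZIP factors in detoxification, and of the C/EBP family, a related group of bZIP factors. The 4 members were taken out, and some genes stand in more than 1 list. In fibroblasts 7 of 7 tested E-box genes were called, and each list count in this class stands against 13.0% of all 12815 genes called. Of the E-box genes, 4 had a fitted peak before ZT12 and 3 after it. Their median amplitude was 1.69 log2, against 0.13 over all genes tested. Nr1d2, which encodes REV-ERBβ, had an amplitude of 1.72 and its peak at ZT 9.44 h, and Bhlhe41, a repressor at E-boxes, had 1.69 at 10.7 h. Nr1d1, which encodes REV-ERBα, had 2.99 at 8.12 h.

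Of 7 tested D-box genes 5 were called in fibroblasts, among them the period gene Per3 (1.42 log2, peak at ZT 11.1 h) and Per2 (1.58, 14.4 h), while Rora (adjusted p = 0.0592) and Rorb (0.459) were not called by edgeR. All 4 tested genes with ROR/REV-ERB elements were called and peaked after ZT12. Arntl, which encodes BMAL1, had 2.39 log2 at 22.4 h, Npas2, a partner of BMAL1, 1.92 at 23.7 h and Clock 0.46 at 22.2 h, within 2 h of Nfil3, and the cryptochrome gene Cry1 peaked at 19.1 h. Among targets in detoxification, Por, the electron donor of microsomal cytochrome P450 enzymes, was called (0.64 log2, peak at ZT 10.7 h, adjusted p = 4.50e-08), with means from 0.531 at ZT22 to 1.18 at ZT10. Alas1, the first enzyme of heme synthesis, was not (adjusted p = 0.763), and Nr1i3 and Cyp2b10 did not pass the filter. Of the C/EBP genes, 0 of 4 tested were called by edgeR, 1 had an unadjusted p under 0.05 and DESeq2 called 1. With 13.0% of all genes called by edgeR, 4 genes are too few to set this list apart.

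In macrophages 3 of 7 tested E-box genes (Nr1d2, Nr1d1 and Per2), 4 of 6 D-box genes (the same and Per3) and 1 of 3 genes with ROR/REV-ERB elements (Arntl) were called by edgeR, and DESeq2 called 2, 3 and 1. Nr1d2 had an adjusted p of 1.91e-08, Arntl 0.000134, Per3 0.000150, Nr1d1 0.000219 and Per2 0.00654 (edgeR). Over all genes of this class edgeR called 0.722% of 9008, so a list with none called is near that share. Neither of the 2 tested targets in detoxification nor the 4 C/EBP genes was called by edgeR, with 1 gene of each list at an unadjusted p under 0.05, and DESeq2 called 1 and 0. Arntl thus passed in macrophages and Nfil3 did not, a difference between the 2 genes that was not tested. In other immune cells 0 of 13 tested genes of the lists were called by edgeR, where 0% of all 7898 genes were. DESeq2 called 0 of the 13, and 6 had an unadjusted p under 0.05. In muscle cells 0 of 8 were called by either tool and 0 had that unadjusted p. There edgeR called 0.168% of all 3580 genes. In both classes the counts of list genes called are at or near the share over all genes and are no result about the lists.

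The genes whose course was most like that of each member in fibroblasts were found by Pearson's r of log2 CPM over the 18 libraries, among 12807 genes. The libraries share a time of day, so these values describe likeness and carry no test. For Dbp they were Ephx1, an epoxide hydrolase (r = 0.959), Bhlhe41 (0.948), Per3 (0.937), Nr1d2 (0.930) and Por (0.928), and the lowest r belonged to Arntl (−0.959), Clock (−0.955) and Leo1 (−0.940). For Tef they were Per3 (0.993), Bhlhe41 (0.983), Maco1 (0.939), Ephx1 (0.936) and Por (0.935).
For Hlf they were Bhlhe41 (0.982), Per3 (0.965), Fam76a (0.932), Lefty1 (0.929) and Maco1 (0.928). For Nfil3 they were Arntl (0.929), Leo1 (0.912), Unc119b (0.907), Clock (0.892) and Kif2a (0.881). Among the members, Tef and Hlf were most alike (0.980), followed by Dbp with Tef (0.930) and with Hlf (0.903), and Nfil3 stood at −0.945 with Dbp, −0.929 with Tef and −0.880 with Hlf.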

How the data were processed

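With Cell Ranger 3.1.0 and the mm10 build the authors made raw UMI counts per gene and barcode, which they deposited without normalization as 1 matrix per library. The study's filter on cells was applied here (850 to 7800 genes detected, mitochondrial share below 13%). From log-transformed counts per 10000, 2000 variable genes and 30 principal components were clustered (Leiden, resolution 0.8) with scanpy 1.11.5 and leidenalg 0.10.2. A cluster took a name where 3 or more of that name's markers were detected, unless its 10 leading genes held more markers of another class than of its own, or its cells were shallow against their library's median UMIs with none of its markers among the 10. For the first reason clusters with enough markers stayed unnamed, among them 4 of other immune cells. This naming rule was revised 1 time after clusters had been seen. A cluster of 695 cells with all fibroblast markers stayed unnamed. Doublets were not removed, except in an alternative that dropped the 219 cells with the highest Scrublet scores.

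UMIs were summed per library and class, for libraries with at least 10 cells. Rhythm was tested with edgeR 4.0.16 in R 4.3.3 (quasi-likelihood test of a 24 h cosine and sine, TMM, filterByExpr, Benjamini-Hochberg over all genes, threshold 0.05), with DESeq2 1.42.0 and a rank test of the JTK_Cycle type as alternatives. JTK_Cycle was the study's test. The scripts were tested on simulated data. Fits without ZT6 replicate 2 and ZT10 replicate 3, without monocyte- and neutrophil-like cells and with the unnamed cluster added to fibroblasts were chosen after seeing the data. The 4 genes were named by symbol, list genes by smallest p or as the examples of a count, and like genes by the 5 highest r, and for Dbp also the 3 lowest. The members and lists were chosen with earlier results of these data known.

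Replicate numbers follow the collection hours in the labels, and the days named here rest on them. The study's source data number these hours differently, while the zeitgeber times agree. Deviations of fibroblast libraries from their time means had a median r of 0.0019 over 45 pairs with the same number (−0.225 to 0.303). Over 90 other pairs it was −0.0044. No deviation shared by number was seen, so these values do not show that equal numbers mark the same day. Promoter sequences are from RefSeq for GRCm38.p6.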

Additional observations from a re-analysis of the deposited data

Results flagged for a closer look

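The 24 h rhythm differed between fibroblasts and another class, by the interaction test of edgeR adjusted over all genes, in 5 comparisons. For Nfil3 the adjusted p was 0.00311 against macrophages (amplitude 1.88 log2 in fibroblasts and 0.55 in macrophages), 0.000117 against other immune cells (0.12 log2) and 0.0382 against muscle cells (0.87 log2). For Dbp it was 0.0320 against other immune cells (2.93 and 0.99 log2), and for Tef 0.0185 against muscle cells (1.36 and 0.10 log2). The values of Nfil3 and Tef against muscle cells and of Dbp against other immune cells rose above the threshold without ZT6 replicate 2 and ZT10 replicate 3.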

How the results depend on the processing

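Calls of the 4 genes in fibroblasts held under every alternative run, and with the collection day as a replicate block (paired by the number in the labels) their adjusted p were 2.97e-07 for Dbp, 4.50e-06 for Tef, 2.59e-06 for Hlf and 2.69e-07 for Nfil3. The replicate block changed no other call of rhythm, and the class comparisons hold the library as a block already. Leaving out 1 library was run for the rhythm in each class and for the comparison with macrophages.

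Genes called rhythmic in fibroblasts, 1671, became 2763 with DESeq2, 1111 for any difference between the 6 times, 383 when thinned to the macrophages' depth, 726 over all barcodes and 923 by the JTK_Cycle-type test. In macrophages 65 became 263, 388 without the low-count filter, 109 for any difference and 15 by rank. In other immune cells 0 became 1 with DESeq2 and 20 without the filter. In muscle cells 6 became 14, 310, 3 for any difference, 3 at 20 cells, 3 with the stricter cell filter and 1 by rank. Genes that differed in rhythm from macrophages, 77, became 188 with DESeq2 and 39 thinned, those from other immune cells, 12, became 32 with DESeq2 and 5 without ZT6 replicate 2 and ZT10 replicate 3, and those from muscle cells, 16, became 8 on totals, 0 at 20 cells and 2 without these libraries.

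By the rank test Tef in macrophages had an adjusted p of 0.0888. In edgeR without the low-count filter Nfil3 in macrophages had 0.0362. In other immune cells the unadjusted rank p was 0.0453 for Dbp and 0.0354 for Tef, with 0.0366 for Tef by permutation of the cosine, and for Nfil3 in muscle cells these were 0.00141 and 0.00829. Without ZT6 replicate 2 and ZT10 replicate 3 the difference in rhythm had an adjusted p of 0.0920 for Dbp against other immune cells, and against muscle cells 0.0703 for Tef and 0.0883 for Nfil3. Against muscle cells DESeq2 gave 0.00857 for Dbp and 0.104 for Nfil3, at least 20 cells gave 0.435 for Tef and 0.260 for Nfil3, and totals alone 0.0754 for Nfil3. The level of Dbp against macrophages had 0.0508 at resolution 2. Against muscle cells it turned sign on totals alone (0.926), and at 20 cells Dbp had 0.00102, Tef 1.01e-05, Nfil3 0.000254 and Hlf 0.0594. The muscle levels move with the scaling factors, and for the other changes the cause was not tested.

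On day 1 alone Tef followed Dbp by 0.431 h, Hlf followed Dbp by 0.556 h and Nfil3 was 11.85 h from Dbp. Hlf minus Tef was −0.114 h on counts per 10000 and 0.376 h on day 2, and on day 3 Nfil3 was 10.9 h from Tef and 10.7 h from Hlf. Peaks in fibroblasts were 10.6 h for Dbp on day 1, 11.4 h for Tef on day 3, 10.8 h for Hlf on counts per 10000, 11.3 and 11.6 h on days 2 and 3, and 22.5 and 22.4 h for Nfil3 on days 1 and 2. In macrophages they were 10.2 h for Dbp and 10.8 h for Tef on day 1, and in muscle cells 8.58 h for Dbp on counts per 10000 and 9.505 h on day 2. Amplitudes were 1.48 for Tef, 2.15 for Hlf (day 2) and 1.61 for Nfil3 (day 3) in fibroblasts, 1.65 for Dbp (day 1), 1.16 and 1.18 for Tef (days 2 and 3) in macrophages and 1.21 for Dbp (day 2) in muscle cells. These single-day peaks and amplitudes are least-squares fits to log2 CPM, whereas the main values are edgeR coefficients.

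Leaving out 1 library in turn gave 39 to 122 genes in macrophages (39 without ZT14 replicate 2, 41 without ZT6 replicate 1, 122 without ZT14 replicate 1), 0 to 1 in other immune cells (1 without ZT14 replicate 3), and 5 to 11 in muscle cells (10 without ZT2 replicate 2, 11 without ZT18 replicate 3). Genes that differed from macrophages ranged from 49 (without ZT6 replicate 1) to 106, the p of Dbp in that comparison from 0.0144 (without ZT14 replicate 1) to 0.322, and that of Hlf from 0.367 to 0.965, with the direction reversed at 0.367, without ZT22 replicate 1. Nfil3 in muscle cells passed the filter in 6 of 17 such fits (0.614 to 0.819).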
